A study of Mus musculus with 6 samples.

Results

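Expression of 8 chemokine receptor genes was compared in microglia, the resident macrophages of the brain, from lupus-prone MRL/lpr mice and control MRL/mpj mice. The genes were Ccr1, Ccr2, Ccr7, Cxcr3, Cxcr4, Cxcr6, Ccrl2 and Ackr1. They were found by matching the 55401 Ensembl identifiers of the count matrix to these mouse symbols, and the main receptor of microglia, Cx3cr1, was left out of the set. All 8 genes had enough counts to be among the 19554 genes tested. The lpr mutation in Fas, a death receptor gene, is what MRL/lpr mice carry, and MRL/mpj mice are the control strain of the same background. Mice of both strains were untreated and 6 weeks of age, and the methods describe the mice of the study as female. Cells were taken from digested brain by a Percoll gradient and magnetic selection for CD11b, a surface protein that other myeloid cells also carry. There were 3 libraries per strain, made from total RNA depleted of ribosomal RNA per the labels, whereas the methods describe purified mRNA. The study counts as many mice per strain as there are libraries, but the labels do not tie a library to 1 animal, and the p-values measure the spread between these libraries, which may be partly technical.

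Chemokine receptors are membrane proteins that couple to inhibitory G proteins and steer cells along gradients of small secreted proteins, the chemokines. They are named CC or CXC after the class of chemokine they bind. A few atypical receptors bind chemokines or related proteins without G protein signalling and act as scavengers, carriers or presenters. In the brain, microglia are known for Cx3cr1, whereas Ccr2 is known from inflammatory monocytes, Ccr7 from dendritic cells and T cells that move to lymph nodes, and Cxcr3 and Cxcr6 from effector T cells and NK cells.

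Total counts ran from 45481609 to 49846634 per library. Libraries of 1 strain differed from each other by more than counting noise. The squared difference of each gene was divided by its variance from counting alone, and the median of this ratio was between 4.02 and 9.18. Pairs with MRL/lpr replicate 3 gave 9.14 and 9.18, and all other pairs gave 4.02 to 4.96. Genes with 4 counts were several times as frequent as genes with 3 or 5 counts in each library, so a low count may stand for fewer sequenced fragments. The microglial label was checked with 10 microglial markers such as P2ry12 and Tmem119, whose summed level ran from 22895 to 25894 CPM (counts scaled to library size by TMM) in MRL/lpr, below the 26837 to 28009 CPM of MRL/mpj. None of these markers was higher in MRL/lpr and 3 were lower, against 11.1% and 9.06% of all genes tested. For Fas the strains differed by -0.06 on the log2 scale (SE, the standard error of the fit, 0.21, edgeR adjusted p = 0.887), and counting by gene cannot show the mutation itself.

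The 8 genes lie on chromosomes 1, 9, 11 and X of GRCm38, and each is made of 2 or 3 exonic blocks in GENCODE M21. Cxcr6 (chr9:123806475-123811760), Ccr1 (chr9:123962124-123968692) and Ccr2 (chr9:124101950-124113557) lie within 307 kb of each other, and Ccrl2 (chr9:111054486-111057519) lies 12.7 Mb away on the same chromosome. Cxcr4 (chr1:128588199-128592293), Ackr1 (chr1:173331886-173333750), Ccr7 (chr11:99144196-99155077) and Cxcr3 (chrX:101731535-101734269) lie apart from these. RefSeq promoters, which run from 250 bases before to 50 bases after a start in GRCm38.p6, were held for 7 of the 8 genes, all but Ccr7. The 3 promoters printed here belong to both genes with a change of at least 2-fold that passed the test, Ccr1 and Cxcr6, and to Cxcr4, whose change did not pass it. Capitals mark the letters GAGGAA, the core bound by PU.1, a factor of the myeloid lineage, which occur in the Ccr1 promoter and in neither of the others on either strand.
Ccr1, chr9:123968643-123968942, minus strand: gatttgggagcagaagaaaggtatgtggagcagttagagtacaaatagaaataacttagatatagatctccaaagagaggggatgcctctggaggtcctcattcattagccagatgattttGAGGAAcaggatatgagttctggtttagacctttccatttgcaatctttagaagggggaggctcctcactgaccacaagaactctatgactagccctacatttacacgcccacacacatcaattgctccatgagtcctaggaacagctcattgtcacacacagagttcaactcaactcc
Cxcr6, chr9:123806227-123806526, plus strand: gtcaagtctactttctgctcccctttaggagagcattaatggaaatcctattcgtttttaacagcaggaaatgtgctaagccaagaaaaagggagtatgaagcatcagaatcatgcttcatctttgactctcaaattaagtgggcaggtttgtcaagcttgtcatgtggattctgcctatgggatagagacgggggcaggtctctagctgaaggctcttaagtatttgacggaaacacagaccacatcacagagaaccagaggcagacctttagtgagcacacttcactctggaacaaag
Cxcr4, chr1:128592250-128592549, minus strand: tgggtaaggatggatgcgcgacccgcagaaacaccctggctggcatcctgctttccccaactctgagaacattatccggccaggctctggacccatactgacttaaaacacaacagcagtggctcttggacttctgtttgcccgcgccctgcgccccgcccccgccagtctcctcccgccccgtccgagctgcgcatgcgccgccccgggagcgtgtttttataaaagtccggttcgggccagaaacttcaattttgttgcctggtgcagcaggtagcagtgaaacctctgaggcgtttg

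The promoters were searched on both strands for PU.1 (GAGGAA), the interferon-stimulated response element ISRE (TTTC and TTTC spaced by 2 bases), the interferon-gamma-activated site GAS (TTCNNNGAA), kappaB (GGG and TTTCC spaced by 2 bases) and AP-1 (TGANTCA). The PU.1 letters began 129 bases before the start of Ccr1 and, on the other strand, 14 bases before the start of Cxcr3. These were the only matches of any of the 5 motifs in the promoters of the 7 genes, and no matches overlapped. Among all 32851 promoters, 28.3% held the PU.1 letters, 3.44% the ISRE, 8.3% the GAS, 1.63% kappaB and 7.81% AP-1. The promoter of Cxcr4 held 20 CpG dinucleotides, a number reached by 26.5% of all promoters. The promoters of Ccr1 and Ccr2 held 1 CpG each, as few as or fewer than which were found in 14.1% of all promoters. A match in these letters is a description of the window and not a binding site.

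Among the 8 receptor genes, Ccr1, Ccr7, Cxcr6 and Ccrl2 were higher in the MRL/lpr libraries, none was lower, and Ccr2, Cxcr3, Cxcr4 and Ackr1 did not pass the test (adjusted p under 0.05, quasi-likelihood test of edgeR, Benjamini-Hochberg over all genes tested). Across all genes tested, 11.1% were higher and 9.06% were lower by the same rule. Ccr1 and Cxcr6 also had a log2 fold change of at least 1, which was so for 4.67% of all genes in the upward direction. No receptor gene passed both thresholds downward, against 3.66% of all genes. Of the receptor genes with lower values in MRL/lpr, only Ackr1 had an unadjusted p under 0.05, at 0.0439, and DESeq2 called it lower. CPM values of the strains did not overlap for any of the 8 genes, with 6 higher and 2 lower in MRL/lpr, against 19.6% and 19.4% of all genes. The median log2 fold change was 0.87 over the 8 receptor genes and -0.01 over all genes tested. The genes were chosen with earlier results known, so these shares say nothing about the family as a whole. In bulk libraries, fewer cells of a type and less RNA per cell cannot be told apart.

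**Figure D1:**
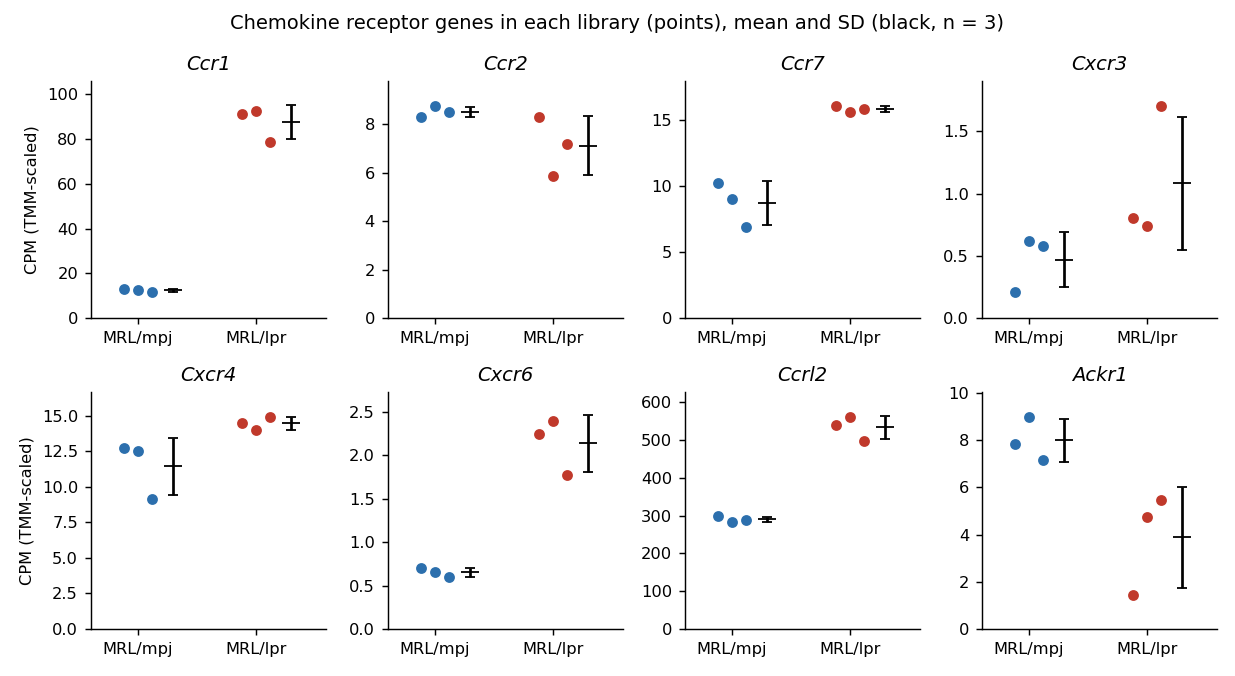
CPM scaled by TMM (vertical axes, from 0) of the 8 receptor genes in each MRL/mpj library (blue) and each MRL/lpr library (red), with the mean and SD of 3 libraries in black. Ccr1 shows the widest gap relative to its level, with 78.7 to 92.4 CPM in MRL/lpr against 11.7 to 13 CPM in MRL/mpj, and Ackr1 shows 1 MRL/lpr library at 1.43 CPM apart from the other MRL/lpr libraries.

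Ccr1 encodes a receptor for inflammatory CC chemokines such as CCL3 and CCL5 on monocytes, macrophages and other leukocytes. It had 4289, 4350 and 3290 counts in MRL/lpr against 668, 633 and 609 in MRL/mpj. Every MRL/lpr library stood far above every MRL/mpj library. The level reached 87.5 ± 7.59 CPM (SD, n = 3) in MRL/lpr and 12.5 ± 0.671 CPM (SD, n = 3) in MRL/mpj. The log2 fold change was 2.81 (SE 0.10, edgeR adjusted p = 2.93e-07), which is 7.02-fold. By p-value, Ccr1 ranked 19 among the 19554 genes tested, and by log2 fold change it ranked 233.

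Ccrl2 encodes an atypical receptor that binds chemerin and presents it to neighbouring cells that carry the signalling receptor Cmklr1. Its counts were 25411, 26422 and 20838 in MRL/lpr against 15331, 14179 and 14967 in MRL/mpj. The groups did not overlap, and the spread within each strain was small, at 5.99% of the mean in MRL/lpr and 2.62% in MRL/mpj. Ccrl2 rose from 290 ± 7.59 CPM (SD, n = 3) to 533 ± 31.9 CPM (SD, n = 3), a log2 fold change of 0.88 (SE 0.06, edgeR adjusted p = 1.63e-05).

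Cxcr6 encodes the receptor for CXCL16, a chemokine that is also held on the cell surface. It had 106, 113 and 74 counts in MRL/lpr against 36, 33 and 31 in MRL/mpj. The lowest MRL/lpr library stood above the highest MRL/mpj library, although the counts are low. The strains differed by 1.71 on the log2 scale (SE 0.33, edgeR adjusted p = 0.00516), from 0.652 ± 0.0528 CPM (SD, n = 3) to 2.14 ± 0.330 CPM (SD, n = 3). Cxcr6 lies within Fyco1, a gene on the opposite strand with 3565 to 4939 counts per library and a log2 fold change of -0.12 (edgeR adjusted p = 0.547). The library kit keeps strand, but the strand setting of the counting is not given in the sources used here, so reads of Fyco1 within Cxcr6 cannot be told apart from those of Cxcr6.

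Ccr7 encodes the receptor for CCL19 and CCL21 that guides dendritic cells and lymphocytes to lymph nodes. It had 752, 734 and 661 counts in MRL/lpr against 524, 449 and 358 in MRL/mpj. The MRL/lpr libraries lay close together, at 15.6 to 16.0 CPM, and the MRL/mpj libraries were spread below them, at 6.88 to 10.2 CPM. The strains differed by 0.86 on the log2 scale (SE 0.16, edgeR adjusted p = 0.00428).

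Cxcr4, the receptor for CXCL12, had 680, 659 and 624 counts in MRL/lpr against 654, 627 and 474 in MRL/mpj. After scaling the libraries of the strains were close, at 14.0 to 14.9 CPM in MRL/lpr and 9.11 to 12.7 CPM in MRL/mpj, with MRL/mpj replicate 3 the lowest. The log2 fold change of 0.34 had a 95% interval from -0.01 to 0.68 and did not pass the test (edgeR adjusted p = 0.166). The interval leaves room for a rise of up to 0.68 on the log2 scale.

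Ccr2, the receptor for CCL2 on inflammatory monocytes, had 389, 275 and 300 counts in MRL/lpr against 426, 436 and 441 in MRL/mpj. The MRL/mpj libraries were nearly alike, whereas MRL/lpr replicate 1 came close to them, at 8.27 CPM against 8.29 CPM in the lowest MRL/mpj library. The strains differed by -0.26 on the log2 scale (95% interval -0.64 to 0.13, edgeR adjusted p = 0.349). A share of 1.91% of the 50-base words of the Ccr2 transcripts also occurs in transcripts of other genes, so only a small part of its reads could have been split.

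Cxcr3, a receptor for the interferon-induced chemokines CXCL9, CXCL10 and CXCL11, was the least abundant receptor gene. It had 38, 35 and 71 counts in MRL/lpr against 11, 31 and 30 in MRL/mpj. The groups were separated by a narrow gap only, 0.744 CPM against 0.620 CPM, and the SD was 49.3% of the mean in MRL/lpr and 47.4% in MRL/mpj. The log2 fold change of 1.20 had a 95% interval from -0.11 to 2.51 (edgeR adjusted p = 0.197), and it was 0.73 with MRL/lpr replicate 3 left out and 1.44 with MRL/mpj replicate 2 left out.

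Ackr1, the Duffy antigen, is an atypical receptor of venular endothelium and red cells that binds many inflammatory chemokines. It had 67, 224 and 228 counts in MRL/lpr against 404, 449 and 372 in MRL/mpj. All 3 MRL/lpr libraries lay below the MRL/mpj libraries, and MRL/lpr replicate 1 lay far below the other MRL/lpr libraries. The log2 fold change was -1.04 (95% interval -2.05 to -0.04, edgeR adjusted p = 0.143), whereas DESeq2 gave -1.05 with an adjusted p of 0.0333. Without MRL/lpr replicate 1 the log2 fold change was -0.65 (edgeR adjusted p = 0.066). Ackr1 overlaps Cadm3, a neuronal adhesion gene on the same strand, and 20.4% of the 50-base words of the Ackr1 transcripts occur in those of Cadm3. Cadm3 had 16, 24 and 62 counts in MRL/lpr against 86, 53 and 44 in MRL/mpj, so the counts of Ackr1 are uncertain to that extent.

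**Figure D2:**
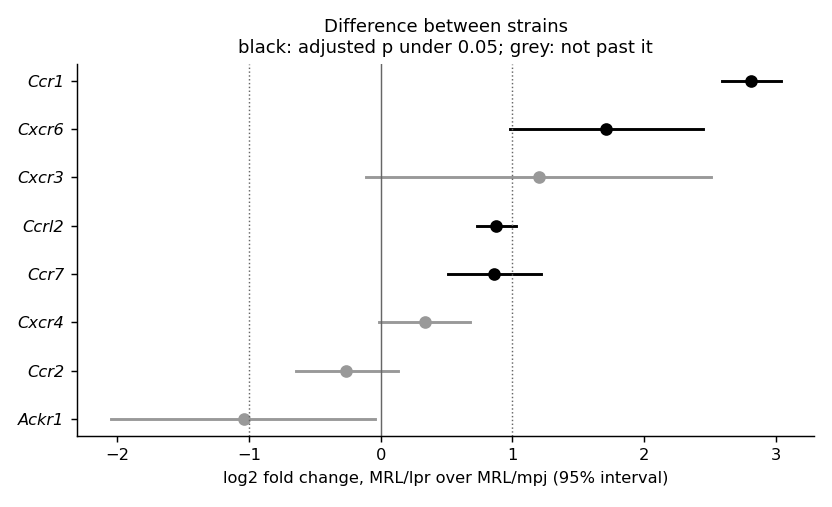
Log2 fold change of MRL/lpr over MRL/mpj (horizontal axis) of each receptor gene with its 95% interval, black where the adjusted p was under 0.05 and grey where it was not, with dotted lines at -1 and 1. Ccr1 stands apart at 2.81, the intervals of Cxcr6, Ccrl2 and Ccr7 lie above 0, and those of Cxcr3 and Cxcr4 reach just below 0.

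Levels of different genes were compared with the FPKM values of the authors, which divide a count by gene length and depth. Ccrl2 was the most abundant receptor gene in both strains, with a mean of 176 FPKM in MRL/lpr and 104 FPKM in MRL/mpj, and it made up 79.7% and 83.1% of the summed FPKM of the 8 genes. Ccr1 was second in MRL/lpr at 26.5 FPKM and held 12% of the sum, but in MRL/mpj, at 4.09 FPKM, it held 3.27% and could not be separated from Ccr7 at 4.08 FPKM. In MRL/lpr, Cxcr4 at 6.84 FPKM and Ccr7 at 6.83 FPKM overlapped between libraries. Ackr1, Cxcr6, Ccr2 and Cxcr3 followed in this strain at 2.34, 0.943, 0.893 and 0.523 FPKM, and each overlapped the next. In MRL/mpj, Cxcr4 at 5.89 FPKM and Ackr1 at 5.29 FPKM came after Ccrl2 and overlapped each other. Ccr2 at 1.16 FPKM stood clear of both Ccr7 above it and Cxcr6 below it, and Cxcr6 and Cxcr3, at 0.307 and 0.247 FPKM, overlapped.

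**Figure D3:**
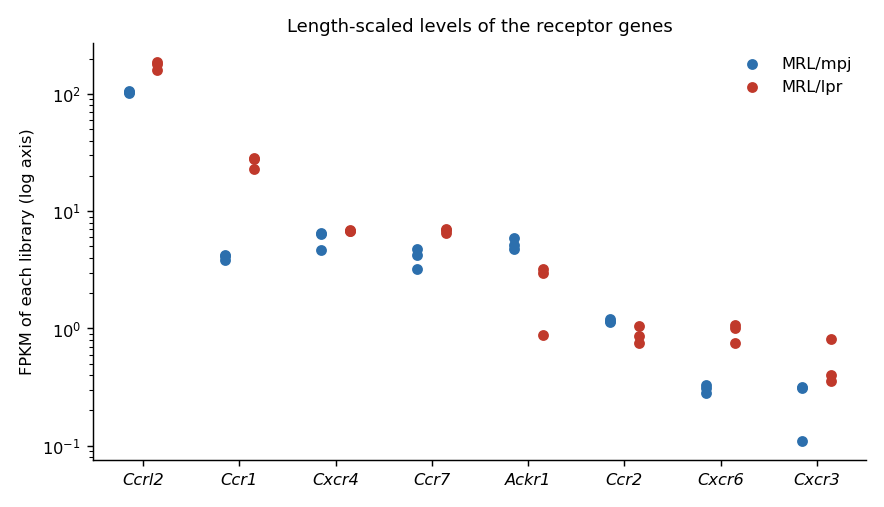
FPKM of each library (vertical log axis) for the 8 receptor genes, ordered by their mean over both strains, with MRL/mpj in blue and MRL/lpr in red. Ccrl2 lies above 100 FPKM in all 6 libraries, and Ccr1 moves from the level of Ccr7 in MRL/mpj to second place in MRL/lpr.

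The remaining receptors of the family were taken as a list of 18 genes, Cx3cr1 included, of which 13 passed the filter on low counts. Of these, 2 were higher in MRL/lpr and 1 was lower, against 11.1% and 9.06% of all genes tested. Cmklr1, the signalling receptor for chemerin, had 8070, 8013 and 9245 counts in MRL/lpr and 2895, 2723 and 2909 counts in MRL/mpj, and rose by 1.76 on the log2 scale (SE 0.11, edgeR adjusted p = 5.46e-06). Ccr6, the receptor for CCL20, had 8670, 8679 and 8208 counts against 4875, 4800 and 5184 counts, and rose by 0.96 (SE 0.06, edgeR adjusted p = 1.03e-05). Both were clear of overlap, as Ccr1 and Ccrl2 were. Ackr3, an atypical scavenger of CXCL12, fell by 0.63 on the log2 scale, with 856, 800 and 700 counts against 1350, 1415 and 1359 counts (edgeR adjusted p = 0.00144). Cx3cr1 had 10645, 132706 and 10334 counts in MRL/lpr, so that replicate 2 stood far above the other libraries, and 27912 to 29349 in MRL/mpj, and it did not pass the test, at a log2 fold change of 0.97 (edgeR adjusted p = 0.664). Without MRL/lpr replicate 2 its direction turned, to a log2 fold change of -1.25 (edgeR adjusted p = 3.14e-05). Ccr4 and Cxcr1 had 0 counts in every library.

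Chemokines bind these receptors in partly shared sets, and 20 ligand genes were listed, 18 of which were tested. Of these, 13 were higher in MRL/lpr and 2 were lower, against 11.1% and 9.06% of all genes tested. With scaling by library size only, 8 ligand genes were higher and 2 were lower. That scaling moved the median log2 fold change of all genes tested from -0.01 to -0.13. Of the ligands of Ccr1, Ccl3 rose by 0.98 on the log2 scale (edgeR adjusted p = 7.85e-05) from an already high level of 506 FPKM to 921 FPKM. Ccl6 rose by 0.68, Ccl7 by 0.69 and Ccl5 by 0.64, while Ccl9 fell by 0.51 on the log2 scale. Ligands of Ccr1 thus moved both ways while the receptor gene itself rose. Ccl2 and Ccl12, ligands of Ccr2, rose by 0.44 and 0.55 on the log2 scale, beside a receptor gene that did not pass the test.

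Cxcl16, the ligand of Cxcr6, rose by 1.06 on the log2 scale (SE 0.08, edgeR adjusted p = 1.55e-05), with 5322, 5927 and 4596 counts in MRL/lpr and 2818, 2783 and 2944 counts in MRL/mpj. Receptor and ligand genes of this pair were therefore both higher. Of the ligands of Cxcr3, Cxcl9 had 104, 105 and 90 counts against 25, 19 and 12 counts, a log2 fold change of 2.58 (edgeR adjusted p = 0.00141). Cxcl11 rose by 1.22 on the log2 scale (edgeR adjusted p = 0.00493). Cxcl10, the third of these chemokines, had 2785 to 4021 counts in MRL/lpr and 3702 to 3927 counts in MRL/mpj, with overlapping groups and a log2 fold change of 0.05 (edgeR adjusted p = 0.811).

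Ccl19, a ligand of Ccr7, had 0, 3 and 0 counts in MRL/lpr against 42, 44 and 36 in MRL/mpj. Ccl19 was lower in MRL/lpr (edgeR adjusted p = 0.00918), the opposite direction to its receptor gene. The size of the fall is uncertain, with an interval of the fit from -7.44 to -2.62 on the log2 scale. The MRL/mpj mean was 12-fold a floor of 3 counts per MRL/lpr library, which is a description and not a lower bound. Ccl21a, the gene listed for the other ligand, CCL21, had 0 counts in every library, and no other CCL21 gene was listed. Cxcl12, the ligand of Cxcr4, rose by 0.43 on the log2 scale (edgeR adjusted p = 0.0105). Rarres2, which encodes chemerin, had 271 to 418 counts in MRL/lpr and 417 to 501 counts in MRL/mpj, with a log2 fold change of -0.28 (edgeR adjusted p = 0.434). Ccrl2, which presents chemerin, and Cmklr1, which signals, were higher, whereas Gpr1, a further chemerin receptor, had 0, 0 and 8 counts in MRL/lpr against 16, 12 and 0 in MRL/mpj and was too low to be tested. Ccl8, an inflammatory CC chemokine, rose from 12, 9 and 3 counts to 66, 73 and 90 counts, a log2 fold change of 3.42 (edgeR adjusted p = 0.00231).

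**Figure D4:**
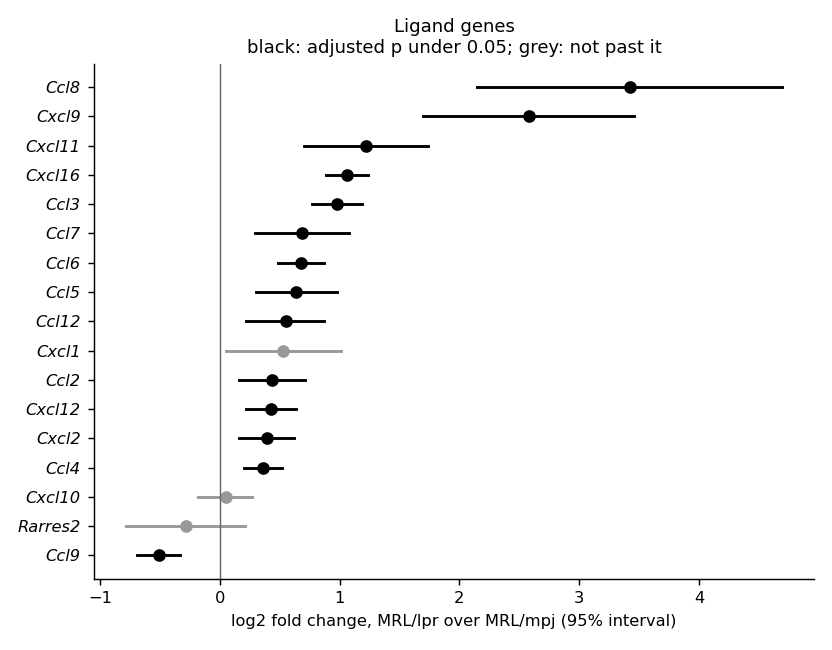
Log2 fold change of MRL/lpr over MRL/mpj (horizontal axis) of 17 ligand genes with 95% intervals, black where the adjusted p was under 0.05 and grey where it was not. Ccl8, Cxcl9, Cxcl11 and Cxcl16 lie furthest to the right, Ccl9 lies left of 0, and Ccl19 is not drawn because its MRL/lpr counts were at the floor.

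Downstream of the receptors, 26 genes of G protein signalling, receptor kinases, arrestins, RGS proteins and the migration machinery were all tested. Of these, 4 were higher in MRL/lpr and 1 was lower, none with a 2-fold change, against 1 higher and 3 lower with scaling by library size only. Over all genes tested, 11.1% were higher and 9.06% were lower with TMM. With scaling by library size only, 1634 of all 19554 genes were higher and 2790 were lower. The small GTPase gene Rac2 rose by 0.37, the exchange factor gene Prex1 by 0.31, the regulatory subunit gene Pik3r6 by 0.31 and the arrestin gene Arrb1 by 0.57 on the log2 scale. Plcb2, a phospholipase activated by G protein subunits, fell by 0.55 on the log2 scale (edgeR adjusted p = 0.00039). Of the listed inhibitory G protein genes Gnai2 and Gnai3, Gnai2 had the higher FPKM, at a mean of 180 in MRL/lpr and 167 in MRL/mpj. Gnai2 did not pass the test (edgeR adjusted p = 0.0608).

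Markers of other cells that carry these receptors were measured in the same libraries. The counts of each marker list stand beside 11.1% higher and 9.06% lower among all genes tested. Of 12 T cell genes, 11 were tested, and 7 were higher and none lower in MRL/lpr, with a summed level of 26.9 to 33.3 CPM against 8.88 to 9.41 CPM. Cd3e had 103, 92 and 120 counts against 2, 0 and 9 counts, and Cd8b1 had 70, 77 and 28 counts against 0 counts in each MRL/mpj library. Of 8 NK cell genes, 7 were tested, and 4 were higher and none lower, with 16.0 to 19.2 CPM against 9.26 to 9.85 CPM in sum, and those higher, Nkg7, Prf1, Gzma and Eomes, are also known from cytotoxic T cells. The NK receptor genes Klrb1c, Ncr1 and Klrd1 did not pass the test. Klrb1c had 23, 0 and 0 counts in MRL/lpr against 75, 16 and 82 in MRL/mpj, Ncr1 was at 0 in 1 library of each strain, and Klrd1 had a log2 fold change of -0.38. These 7 T cell genes and 4 genes of the NK list were higher beside Cxcr6 and Ccr7, and their part in the values of Cxcr6, Ccr7 and Cxcr3 was not tested. Of 10 monocyte genes, 7 were higher, such as Plac8 and Itga4, and 1, Chil3, was lower, with a summed level of 122 to 151 CPM against 107 to 114 CPM. Ly6c2, a defining monocyte gene, had 837 to 1251 counts against 840 to 1014 counts and did not pass the test (edgeR adjusted p = 0.146). Of 9 neutrophil genes, 4 were higher and none lower, with 1492 to 1671 CPM against 1452 to 1489 CPM in sum. Csf3r, the largest part of this sum, had 757 to 807 CPM in MRL/lpr against 842 to 886 CPM in MRL/mpj. It alone had lower values in MRL/lpr. The groups did not overlap for any of the 9, against 19.6% of all genes upward and 19.4% downward. The part of monocytes and neutrophils in the values of Ccr1 and Ccr2 was not tested.

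Of 9 dendritic cell genes, 8 were tested, and Itgae and Fscn1 were higher and none lower, with 668 to 783 CPM in MRL/lpr and 521 to 544 CPM in MRL/mpj, most of it from Fscn1. Flt3, which marks dendritic cells, had 43, 71 and 63 counts in MRL/lpr against 92, 106 and 146 counts in MRL/mpj (edgeR adjusted p = 0.148). Clec9a also had lower values, at a log2 fold change of -1.56 (edgeR adjusted p = 0.0632). Zbtb46 had higher values, at 0.36 (edgeR adjusted p = 0.108). The part of dendritic cells in the values of Ccr7 was not tested. Beside Ackr1, 10 endothelial genes summed to 2160, 2129 and 2495 CPM in MRL/lpr and 1952 to 2020 CPM in MRL/mpj. Among them Flt1 was higher and Tek was lower. Selp, a venular gene, had 110, 72 and 56 counts against 132, 109 and 123 counts (edgeR adjusted p = 0.363). Vwf and Sele of the same list had values the other way. Their log2 fold changes were 0.41 and 0.22 (edgeR adjusted p = 0.153 and 0.558). Of 7 erythroid genes, 5 were tested, and 1, Alas2, was higher, with 685 to 1135 CPM in MRL/lpr and 611 to 674 CPM in MRL/mpj. The part of endothelial and red cells in the values of Ackr1 was not tested. Of 7 neuronal genes, Snap25 and Syt1 were lower and none was higher, with 22.1 to 28.3 CPM against 37.6 to 43.1 CPM, and the part of neuronal RNA in the counts of Ackr1 and Cadm3 was not tested. In the remaining lists, 2 of 6 plasma cell genes were higher, none of 6 B cell genes tested passed the test, and 2 of 9 border macrophage, 1 of 6 astrocyte and 2 of 6 oligodendrocyte genes were lower.

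For each receptor gene, the genes most like it were found among 14922 genes with a mean of at least 1 CPM, by the mean absolute difference of log2 CPM over the 6 libraries after each gene was centred on its own mean. Closest to Ccr1 were Tnfsf13b, which encodes the B cell survival factor BAFF, Gm8750 and the interferon-induced Oasl1, at 0.062, 0.064 and 0.085 on the log2 scale. Ptger4, Gbp4 and Nfkbiz lay closest to Cxcr6, at 0.054, 0.074 and 0.082. Slc15a3, Rasgef1b and Tent5c lay closest to Ccrl2, at 0.033, 0.034 and 0.037, and Plbd1, Cdc45 and Batf to Ccr7, at 0.035, 0.051 and 0.064. Ccr2 was matched by Sptssa, Cstf2 and Rin1 at up to 0.039, and Cxcr4 by 2410006H16Rik, Med29 and Epb41 at up to 0.033. No gene came close to the noisier profiles of Cxcr3, with Cep295nl, Gm37420 and Slc24a1 at 0.172 to 0.197, or Ackr1, with Tagln3, 2010315B03Rik and Kcnj9 at 0.154 to 0.194. The measure rests on 6 libraries in 2 groups, and many genes with a similar strain difference lie near each profile.

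The calls of Ccr1, Ccr7, Cxcr6 and Ccrl2 held under each of 13 other settings, including each library left out in turn. Over these settings the log2 fold change of Ccr1 ran from 2.66 to 2.89, that of Cxcr6 from 1.35 to 1.84, that of Ccrl2 from 0.76 to 0.93 and that of Ccr7 from 0.72 to 0.99, with the highest adjusted p at 0.0251, for Cxcr6. Ccr2, Cxcr3 and Cxcr4 passed the test under none of the settings in which they could be fitted. Their adjusted p-values ran from 0.151 to 0.673, from 0.182 to 0.504 and from 0.133 to 0.409.

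**Figure D5:**
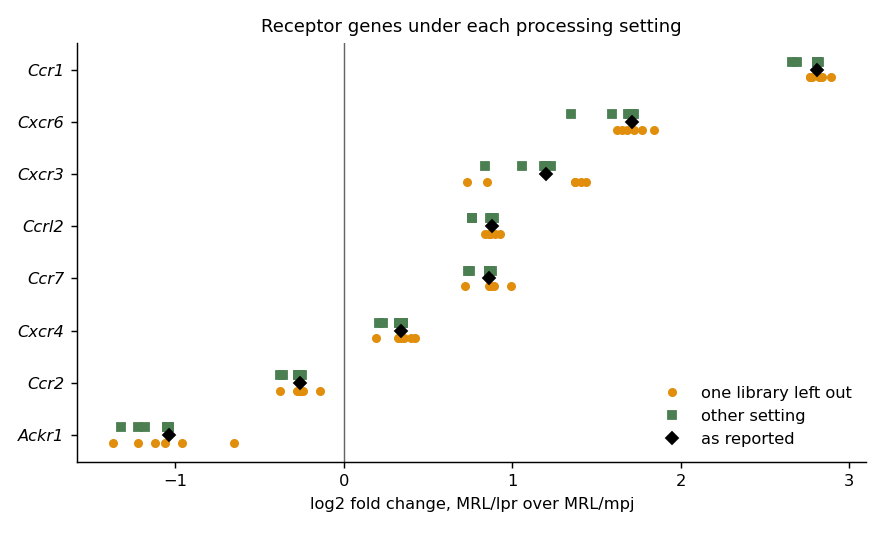
Log2 fold change of MRL/lpr over MRL/mpj (horizontal axis) of each receptor gene as reported (black diamonds), with 1 library left out (orange circles) and under the other settings (green squares). No gene changes sign, the points of Ccr1 stay between 2.66 and 2.89, and those of Cxcr3 and Ackr1 scatter most.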

How the data were processed

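Counts per gene and FPKM values were used as the authors deposited them. Per the labels and the methods, reads were trimmed with cutadapt 1.9.3 and aligned with HISAT2 2.0.4 to GRCm38. The submitters' processing notes also name Cufflinks and Cuffdiff 2.2.1, without their role. Which tool and annotation gave the counts is not given in the sources used here. The deposited FPKM values divide counts by gene length and depth: over 8166 genes of at least 500 counts per library, 100% of them lay within 2% of that proportion. Symbols matched 55141 of 55401 identifiers in GENCODE M21.

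edgeR 4.0.16 (R 4.3.3) was used to compare the 3 MRL/lpr and 3 MRL/mpj libraries. Genes were filtered with filterByExpr (minimum count 10, minimum total 15), scaled with TMM and tested with the quasi-likelihood test with robust dispersions, without covariates and with Benjamini-Hochberg adjustment over 19554 genes. Higher and lower mean an adjusted p under 0.05. Errors are SD over libraries or standard errors of the fit, and intervals are 95% intervals of the fit. The steps were tested on simulated data.

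Alternatives were DESeq2 1.42.0, other scalings, no filter, counts divided by 4, a replicate block, limma 3.58.1 on log2(FPKM + 0.1) and each library left out. Named genes are the 8 receptor genes, genes of the lists that passed the test or bind a receptor of the set, markers beside a result, and the 3 most similar genes of each receptor gene. Members and lists were chosen with earlier results of these data known. A planned gene of the receptor list was left out of its counts and is not reported here. The promoters come from RefSeq (GRCm38.p6).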

Additional observations from a re-analysis of the deposited data

How the results depend on the processing

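Of 103 values of the 8 receptor genes under 13 alternatives, 102 kept their direction and their side of the threshold, and none reversed. The exception was Ackr1, at -1.05 on the log2 scale in DESeq2 (adjusted p = 0.0333), so that 1 receptor gene was lower there against 0 in edgeR, where 1 receptor gene with a lower value, again Ackr1, had an unadjusted p under 0.05. Cxcr3 could not be fitted with counts divided by 4, because it did not pass the filter. With libraries left out in turn, lower genes among the other receptors ran from 1 to 2. The 2 came without MRL/lpr replicate 2, where Cx3cr1 turned from 0.97 to -1.25 on the log2 scale. Higher ligand genes ran from 8 to 14, with 8 without MRL/lpr replicate 2, MRL/mpj replicate 2 or MRL/mpj replicate 3. Signalling genes ran from 1 to 8 higher and 1 to 2 lower, the 8 and 2 without MRL/lpr replicate 3. Among all 20436 to 20486 genes of these fits, 1626 to 2363 were higher and 1177 to 1971 were lower. The highest of both were also without MRL/lpr replicate 3.

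With scaling by library size only and with limma on FPKM, 8 ligand genes were higher, and 1 signalling gene was higher and 3 were lower. All 19554 genes split into 1634 higher and 2790 lower under the first and 1611 and 2534 under the second, against 2178 and 1772 with TMM. With counts divided by 4, 1 ligand gene was lower, beside 1826 of all 15635 genes fitted. Same-numbered libraries did not deviate together (correlations -0.0409, -0.0202 and -0.0325), and none correlated best with its own number. With the replicate block, 4 receptor genes were higher and 1 of the other receptors was lower, as without it, and 1422 genes passed both thresholds against 1630. Cx3cr1 was also below 0 with the block (-0.19) and with limma (-0.18), past no threshold. The lowest counts per library among the 8 receptor genes were those of Cxcr3, at 11 to 71, and Cxcr6, at 31 to 113.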

Other observations

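Genes near the receptor genes were counted by the same edgeR test, by which 11.1% of all genes tested were higher and 9.06% were lower. Within 500 kb of Ccr1, 2 of 21 other genes tested were higher, Cxcr6 among them, and 3 were lower. One of the lower genes, the transporter gene Slc6a20a, fell by 1.15 on the log2 scale (edgeR adjusted p = 0.0147). Slc6a20a also lies within 500 kb of Ccr2 and Cxcr6. Around Ccrl2, none of 19 genes was higher and 2 were lower, at a median log2 fold change of 0.01.

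Ackr1, which did not pass the test in edgeR and had lower values in MRL/lpr, lies next to a stretch of interferon-inducible genes that were higher. Of 9 other genes tested within 500 kb, 6 were higher and none was lower, against 11.1% and 9.06% of all genes tested. Their median log2 fold change was 1.93. The DNA sensor gene Aim2 rose by 0.66 on the log2 scale. Its relatives Ifi204, Ifi207, Ifi208, Ifi209 and Ifi214 rose by 1.93, 1.32, 4.47, 3.60 and 3.98. Among these genes the edgeR adjusted p ran from 2.02e-05 for Ifi209 to 0.0237 for Ifi208 and 0.046 for Ifi214. Ifi206 and Ifi203-ps, at 2.02 and 1.58, did not pass the test (edgeR adjusted p = 0.404 and 0.0841). Relatives of this family resemble each other, so the counts of single ones are uncertain. These neighbours were chosen by position after the values of Ackr1 were seen.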
